A study of Mus musculus with 2 samples.

Results

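The transcripts of 10 receptor genes for colony-stimulating factors and cytokines were followed in the mouse macrophage-like line RAW264.7, with and without knockdown of Lamtor1. The genes were Csf1r, Csf2ra, Csf2rb, Csf3r, Il6ra, Il7r, Il2rg, Il10ra, Ifngr1 and Ifngr2. They were taken by name, as every probe whose gene name in the scanner files equals one of these symbols. This gave 10 genes and 13 probes, out of 22803 genes with a named probe on the array, of which 13773 were measured.

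The series holds 2 samples, 1 array of control RAW264.7 cells and 1 array of Lamtor1 knockdown RAW264.7 cells, and asks how active the transcription factor TFEB is in cells that lack Ragulator, the lysosomal complex anchored by Lamtor1. The knockdown used a lentivirus mixture of 2 vectors with short hairpin RNA against Lamtor1, followed by limiting dilution; the labels print the same protocol under the control, and what the control cells received, or whether either sample grew from a single cell, the sources used here do not say. Both samples grew in the same serum-containing medium with antibiotics, with no added cytokine named. With 1 array per group there is no replicate check, no test was possible, and every difference describes these 2 arrays only. Nor can fewer cells of a type be told apart from less RNA per cell.

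Levels are log2 processed signals set against each array's own 75th percentile, which was 1172 intensity units for the control and 1255 for the knockdown, and differences are knockdown minus control. In the control 53.3% and in the knockdown 52.9% of the spots that were not controls were well above background by the scanner's flag, and 0 were saturated. Each receptor probe was spotted once. Repeat spots existed for 216 other probes above background on both arrays. The log2 difference at their single spots had a median SD of 0.044, which covers spotting and scanning only. The scanner software's own error estimate was wider, at 10% to 10.2% of the signal of each receptor probe on each array. Lamtor1 itself was at 4.34% of the control signal in the knockdown, with levels of 4.10 and then -0.43. A gene counts as measured where its brightest probe passed that flag on 1 array or both, and a gene with several probes took the value of the brightest.

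The macrophage label was checked against 16 markers, of which 14 were measured, with 4 higher and 2 lower in the knockdown by 2-fold or more, beside 9.0% and 8.35% of all measured genes. Adgre1, which encodes a macrophage surface antigen, was 2.95-fold lower, and Cd68 was 2.33-fold higher. Of 9 T and natural killer cell markers 4 were measured, and their summed relative signal was 2.63 in the control and 2.47 in the knockdown. Cd3d, Cd3g and Cd8a were among those not above background on either. Cd3e, Cd4 and Lck were above background on both, with control levels of -1.40, 0.66 and -0.63. Of 6 B cell markers 2 were measured, with summed signals of 15.5 and 30.1, and Cd79a, Ms4a1 and Pax5 were among those that were not. Of 10 neutrophil markers 3 were measured, with a summed relative signal of 0.555 and 1.28, and Ly6g, Mpo, Prtn3 and Ltf were among those that were not. Of the measured ones 2 were at least 2-fold higher, beside 9.0% of all measured genes. They were Elane, 2.23-fold higher, and S100a8, 4.22-fold higher from a dim control level of -5.36. Of 8 dendritic cell markers 4 were measured, with summed signals of 46.3 and 41.9, and Flt3 was not above background. Most of that sum came from Siglech, with levels of 5.48 and 5.33. Of 7 fibroblast markers 2 were measured, with summed signals of 0.0539 and 0.0252. Of 11 osteoclast markers 10 were measured, 3 higher and 4 lower by 2-fold or more against the same shares. Their median difference was -0.36, with 5 of the 10 above 0, and it was 0.14 over the 9 above background on both arrays. Their summed signal was 15.6 in the control and 70.9 in the knockdown. Ctsk (cathepsin K) went from 1.30 to 5.56, Atp6v0d2 from -0.05 to 3.92 and Itgb3 from -3.23 to -0.43. Ocstamp was lower at -2.28, Dcstamp at -1.46 and Tnfrsf11a at -1.18. Calcr, measured in the control alone, was at least 1.88-fold lower, so by bounds 3 osteoclast markers counted as lower. The part of these markers in the receptor differences was not tested.

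Cytokine receptors of classes I and II carry no kinase of their own. Many of them pair a ligand-binding chain with a chain shared between several ligands, and others do not. They signal through Janus kinases bound to their inner tails, which phosphorylate STAT transcription factors. The CSF1 receptor differs, being a receptor tyrosine kinase, and its signal keeps macrophages alive and dividing. In macrophages GM-CSF and interferon gamma raise inflammatory activity, and IL-10 restrains it.

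All 13 probes were well above background on both arrays. Il7r and Csf2rb, 2 of the 10 receptor genes, had a signal 2-fold higher or more in the knockdown, where 9.0% of all 13773 measured genes were. Il10ra was the 1 gene at least 2-fold lower, where 8.35% of all measured genes were. The other 7 stayed within 2-fold. By sign, 5 genes were higher and 5 lower, and the median difference was -0.12, beside -0.05 over all measured genes. By probe, 2 of 13 were higher and 3 of 13 lower by 2-fold or more, beside 8.46% and 8.36% of 21864 measured probes. With so few genes, 2 and 1 are close to the share of all genes that passed 2-fold, so nothing is read from the counts and the genes are described singly.

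**Figure D1:**
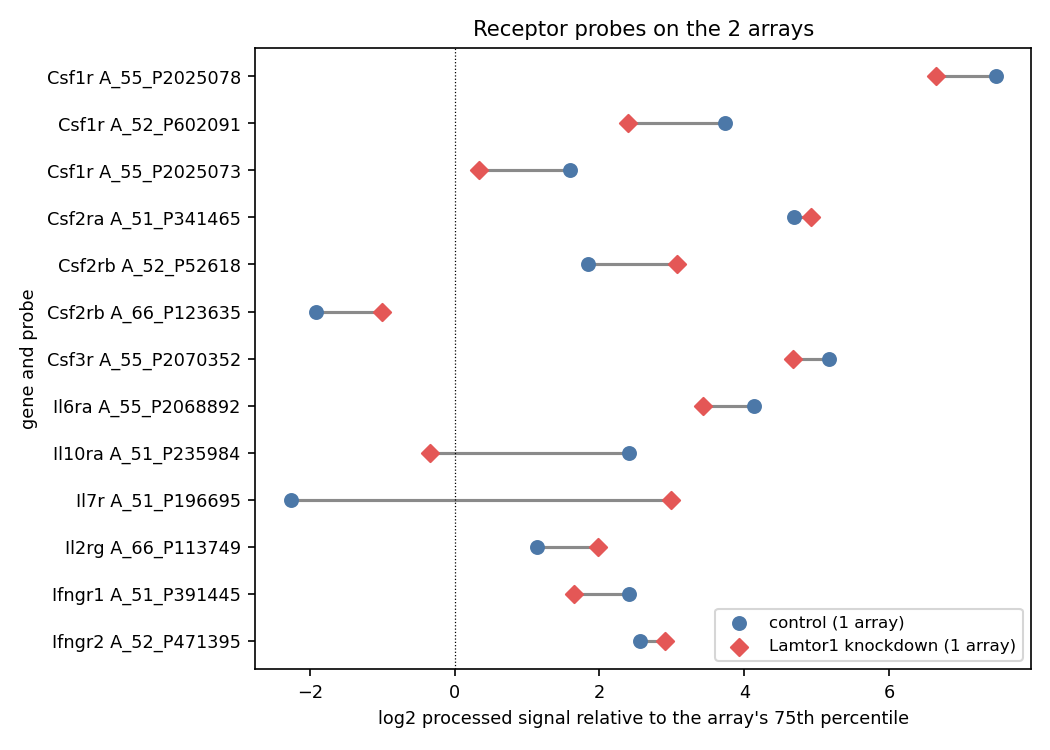
Level of each of the 13 receptor probes (log2 processed signal relative to the array's 75th percentile) on the control array (circles) and the Lamtor1 knockdown array (diamonds), 1 array each, with no error bar since there are no replicates. The longest lines belong to Il7r, from -2.26 to 2.99, and Il10ra, from 2.40 to -0.34, and all 3 Csf1r probes move to the left.

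Csf1r encodes the receptor of CSF1 and IL-34, the growth factor receptor on which macrophages depend, and was lower in the knockdown at all 3 of its probes. The first probe, on chromosome 18 at 61290725 to 61290784 in mm9, had processed intensities of 207796 in the control and 125888 in the knockdown, which is a log2 difference of -0.82. It is the brightest probe of the gene and gave a 1.77-fold lower signal. The probe at 61289398 to 61289758, whose 60 bases the files place over a span of 361 bases of genome, went from 15535 to 6594, a log2 difference of -1.34. The third probe, at 61278661 to 61278720, went from 3529 to 1586, a log2 difference of -1.25. The probes thus gave the same direction, but only the brightest stayed within 2-fold. As the median over probes the gene was at -1.25 and would count as at least 2-fold lower, which makes 2 of the 10 receptor genes lower in place of 1. The brightest probe carried no saturation flag on either array. The RefSeq table also lists a Csf1r pseudogene on chromosome 19, and whether its RNA reaches these probes was not tested.

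The genes around CSF1 receptor signalling did not share 1 direction. Its ligand gene Csf1 had a signal above background in the knockdown alone, at least 2.40-fold higher, while the other ligand gene, Il34, differed by 0.11. Tyrobp, an adaptor that couples macrophage receptors to the kinase Syk, was 1.43-fold higher, and Syk was 4.61-fold higher, from 1.13 to 3.34. Fgr, a Src family kinase gene typical of myeloid cells, was 2.42-fold lower, and Src itself, too dim to measure in the control, was at least 1.52-fold higher. Of the metalloproteases that can shed receptor ectodomains, Adam17 had a difference of -0.56 and Adam10 of 0.54. In this list of 16 adaptors and sheddases 14 were measured, 2 higher and 2 lower by 2-fold or more, beside 9.0% and 8.35% of all measured genes, with a median of 0.35. Src counts among the higher by its plain difference, and by its bound it does not, which leaves 1.

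For the GM-CSF receptor, the ligand-binding chain gene Csf2ra, with its probe on chromosome 19 at 61300336 to 61300395, went from a processed intensity of 30092 to 38140, a difference of 0.24, so the 2 arrays differed by 1.18-fold. Csf2rb encodes the common beta chain, which joins the alpha chains for GM-CSF, IL-3 and IL-5 and carries the signal. Its brighter probe, on chromosome 15 at 78181168 to 78181227, went from 4215 to 10563, a 2.34-fold higher signal and a log2 difference of 1.23. Its other probe, at 78179504 to 78179563, was dimmer and went from 311.1 to 627.9, a difference of 0.91. Both probes were higher in the knockdown, 1 of them past 2-fold, and the median over probes was 1.07.

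Mice carry a second beta chain gene beside the first, Csf2rb2, whose product serves IL-3 alone. Csf2rb2 went from a level of 0.57 to 3.41 and was thus 7.16-fold higher in the knockdown, and its other probe gave a difference of 2.08 from -1.66 to 0.42. The paralogs are near-identical in places, so the bright probes of both were compared base by base, each read from the scanner files. Within their best ungapped overlap 31 of 42 bases were identical, and within the 30 bases shown here 27 were, with the differing bases in capitals.
Csf2rb probe, bases 30 to 59: ggcagatcaaAtgtCccttggtctCtgttc
Csf2rb2 probe, bases 12 to 41: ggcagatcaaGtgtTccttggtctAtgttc
A signal at either bright probe could hold RNA of the other gene, so the value of 2.34-fold for Csf2rb is uncertain to that extent. The second probes of the pair had 15 of 31 identical bases at best, and both were higher as well, at 0.91 for Csf2rb and 2.08 for Csf2rb2. Il3ra, the IL-3-binding alpha chain, was measured in the knockdown alone and was at least 1.25-fold higher. Csf2 and Il3 were not above background on either array, and Il5, also dim in the control, was at least 1.57-fold higher.

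Csf3r encodes the receptor of G-CSF, the main growth factor of neutrophils. Its 1 probe, on chromosome 4 at 125721478 to 125721537, went from 41982 to 32053, a difference of -0.49 and a 1.40-fold lower signal. The sequence of this probe bears on how the value can be read, since its bases 23 to 60 consist of stretches of 16 bases that 10 other probes of the array also hold, on 1 strand or the other. The last 30 bases are shown, with the shared bases in capitals, here all of them.
Csf3r probe, bases 31 to 60: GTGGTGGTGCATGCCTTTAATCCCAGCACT
These letters resemble the start of the B1 element, an abundant interspersed repeat of the mouse genome. Of the 10 other probes 8 were measured, and their differences ran from -1.39 to 0.64 with a median of -0.19. How much of the Csf3r signal came from other transcripts with this repeat was not tested. Csf3, the ligand gene, was too dim to measure in the control, and its knockdown signal was at least 1.69-fold higher. Of the other 12 receptor probes, 11 shared no stretch of 16 bases with any probe of the array, and the brighter Csf2rb probe shared 1 with 1 probe of the opposite strand.

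Il6ra encodes the chain that binds IL-6, and its partner Il6st encodes gp130, the signalling chain shared by the IL-6 family. The Il6ra probe, on chromosome 3 at 89674054 to 89674113, went from 20668 to 13474, a 1.64-fold lower signal and a difference of -0.72. Il6st was lower as well, from -0.09 to -0.60, a difference of -0.51. Both chains were thus lower and both stayed within 2-fold. Il6 itself was not above background on either array. Among other members of the gp130 family, Il11ra1 was 5.34-fold higher, from 1.19 to 3.61, a value that its close copy Il11ra2 makes uncertain. Il27ra was measured in the knockdown alone, at least 1.67-fold higher, and Lifr in the control alone, at least 3.48-fold lower.

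Il10ra, the IL-10-binding chain, showed the lowest difference of the 10 genes. Its 1 probe, on chromosome 9 at 45062237 to 45062296, went from 6189 to 991.8, a 6.69-fold lower signal after scaling and a log2 difference of -2.74. Of the 13773 measured genes 294 had a lower difference. The first 30 of the 60 bases of this probe identify the stretch that was measured, and none of its stretches of 16 bases recurs on the array.
Il10ra probe, bases 1 to 30: gtcatgaccctaatctggtacgagagctcc
Il10rb, the second chain of the IL-10 receptor and a shared chain of the class II family, went the other way, from 1.04 to 2.07, a 2.05-fold higher signal. The 2 chains of the IL-10 receptor thus differed in opposite directions on these arrays. Il10 was not above background on either array. Socs3, an inhibitor that IL-10 and IL-6 induce through STAT3, was 3.76-fold lower, from 0.37 to -1.55, while Stat3 differed by 0.19.

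Il7r encodes the alpha chain that binds IL-7 and, paired with Crlf2, also serves TSLP; it is known above all from lymphocytes and their precursors, and it also marks some fetal macrophages. It had the highest difference of the 10 genes. Its 1 probe, on chromosome 15 at 9435976 to 9436035, read 243.9 in the control and 9988 in the knockdown. After scaling this is 38.2-fold, a log2 difference of 5.26, from -2.26 to 2.99, and 47 of 13773 measured genes had a higher difference. The control signal was dim but well above background, and with normexp background correction the difference was 4.89. The first 30 bases of the probe are given since the finding rests on this 1 spot per array.
Il7r probe, bases 1 to 30: atcaatcaactatgtttggatccagggaat
No stretch of 16 bases of the probe recurs on the array. The summed signal of the measured T and natural killer cell markers, 2.63 in the control and 2.47 in the knockdown, and that of the 2 measured B cell markers, 15.5 and 30.1, stand beside this difference. Of the latter Blnk differed by 0.96 and was above background on both arrays, and Cd79b was measured in the control alone, at least 2.62-fold lower. The part of lymphoid cells in the Il7r difference was not tested.

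The partners of Il7r differed far less. Il2rg, the common gamma chain of the receptors for IL-2, IL-4, IL-7, IL-9, IL-15 and IL-21, went from 2580 to 4941 at its probe on the X chromosome at 98460130 to 98460189, a 1.79-fold higher signal and a difference of 0.84. Crlf2, the TSLP-binding chain, differed by 0.41, from 2.83 to 3.25. Il15ra differed by 0.85 at its brightest probe, but its other measured probe gave -1.09. Il4ra differed by 0.18, with 0.88 at its other probe, and Il13ra1, which pairs with it, by -0.94. Il2rb and Il21r were not above background on either array, nor were the ligand genes Il7, Tslp, Il2, Il4, Il9 and Il21. Il15 was measured and differed by 0.21.

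The 2 chains of the interferon gamma receptor moved in opposite directions and stayed within 2-fold. Ifngr1, the ligand-binding chain, went from 6226 to 3948 at its probe on chromosome 10 at 19329923 to 19329982, a 1.69-fold lower signal and a difference of -0.76. Ifngr2, the chain that brings in the second Janus kinase, went from 6928 to 9384 at its probe on chromosome 16 at 91563982 to 91564041, a 1.26-fold higher signal and a difference of 0.34. Ifng was not above background on either array. The chains of the type I interferon receptor, taken for comparison, differed by -0.17 for Ifnar1 and -0.40 for Ifnar2.

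**Figure D2:**
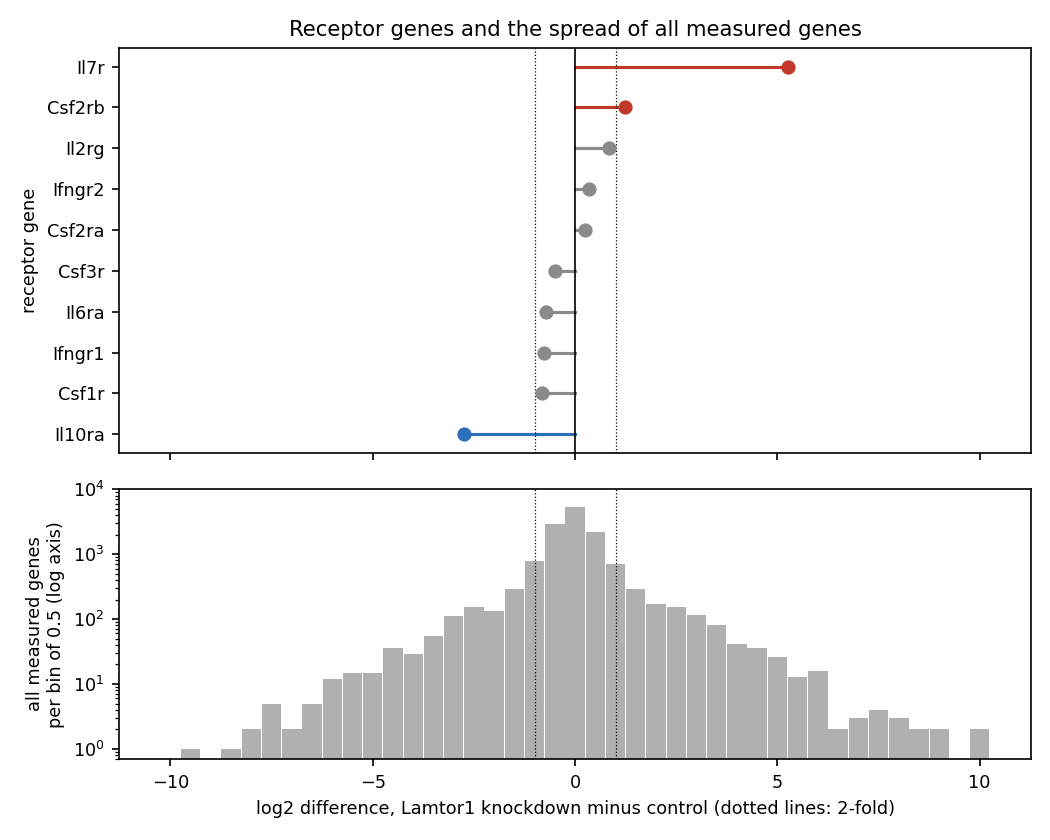
Upper panel: log2 difference (Lamtor1 knockdown minus control, 1 array each) of the 10 receptor genes at their brightest probes, red at least 2-fold higher, blue at least 2-fold lower, grey between. Lower panel: number of all 13773 measured genes per bin of 0.5 on a log axis. Il7r at 5.26 lies in the sparse upper tail, Il10ra at -2.74 in the lower tail, and 7 of the 10 between the dotted lines at 2-fold.

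**Figure D3:**
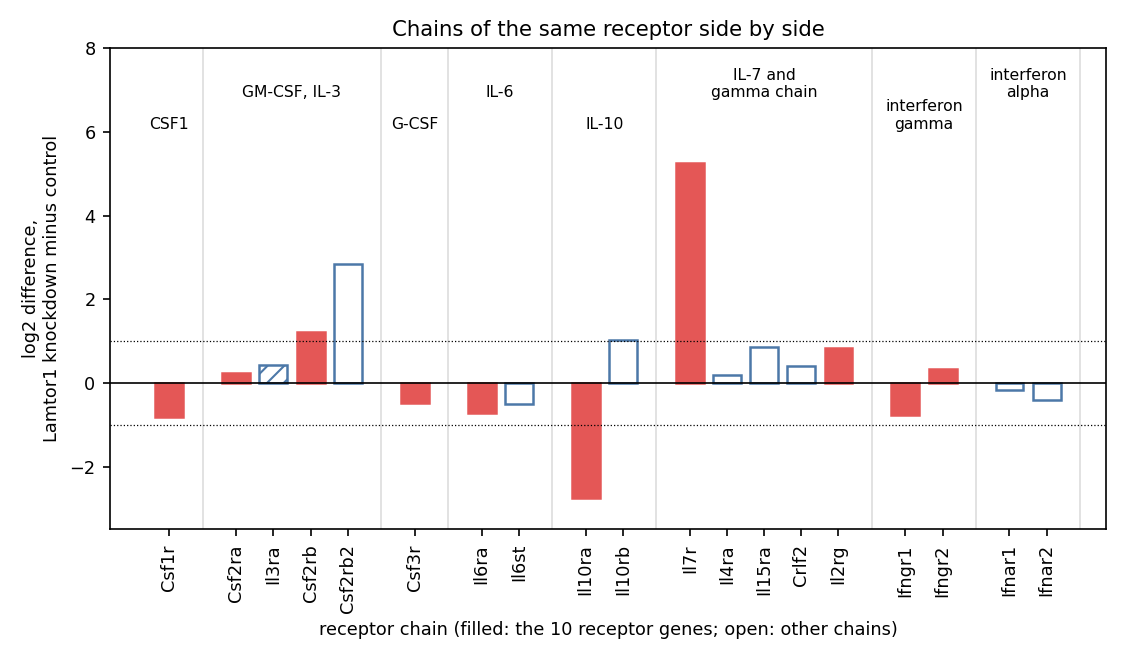
Log2 difference (Lamtor1 knockdown minus control) of the chains that form a receptor, grouped by ligand, with the 10 receptor genes filled and other chains open; a hatched bar marks a gene above background on 1 array only, and dotted lines mark 2-fold. Chains of 1 receptor point opposite ways for IL-10 (-2.74 and 1.04) and interferon gamma (-0.76 and 0.34), and the same way for IL-6 (-0.72 and -0.51).

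Among 36 other chains of the class I and II families, 23 were measured, 4 of them higher and 2 lower by 2-fold or more, beside 9.0% and 8.35% of all measured genes, with a median of 0.42. The count of lower chains is about that share. The higher ones were Csf2rb2, Il11ra1, Il10rb and Il27ra, and counting genes above background on 1 array by their bound leaves 3. The lower ones were Lifr and Il13ra2, a decoy chain for IL-13 that was measured in the control alone and was at least 6.81-fold lower. Of 16 ligand genes of the 10 receptors, 5 were measured. Of these 3 were at least 2-fold higher by plain difference and 1 by its bound, beside 9.0% of all measured genes. The 3 were Csf1, Il5 and Csf3, each dim in the control and counted as measured through the knockdown array alone. Nothing is read from this count. The 2 ligand genes above background on both arrays had a median of 0.16.

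Downstream of the receptors, all 10 measured Janus kinase and STAT genes of 11 stayed within 2-fold, with a median of 0.13 and a lowest difference of -0.56, for Jak2. Stat5a and Stat5b, which act after GM-CSF and IL-7, differed by 0.53 and 0.05. Stat4 was not above background. Of 25 genes that restrain receptor signalling 22 were measured, 2 higher and 2 lower by 2-fold or more, with a median of -0.01. Both counts are about the share over all measured genes, 9.0% higher and 8.35% lower. Cblb, a ubiquitin ligase for activated receptors, was 6.73-fold higher, with a log2 difference of 2.11 at its other probe, and Spry2, measured in the knockdown alone, was at least 2.01-fold higher. Socs3 was 3.76-fold and the adaptor gene Dok2 2.29-fold lower. Ptpn6, the phosphatase SHP-1 that acts on several of these receptors, had a difference of -0.95. Cish and Socs2, both known targets of STAT5, were not above background on either array.

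The regulators of myeloid receptor genes included 5 of 20 measured genes lower and 1 higher by 2-fold or more, beside 8.35% and 9.0% of all measured genes, with a median of -0.21. Cebpa, a factor of early myeloid cells that acts on the Csf3r gene, was 22.6-fold lower, from 0.70 to -3.80. Klf4 was 47.1-fold, Ets2 2.24-fold and Fos 2.04-fold lower, and Tfec was 4.30-fold higher. Spi1 encodes PU.1, the factor that activates Csf1r and the GM-CSF and G-CSF receptor genes; it differed by 0.08, from 1.05 to 1.13. Irf8 differed by -0.27, and Runx1 by -0.28 at its brightest probe and -1.16 at its other probe. Whether any of these factors has a part in the receptor differences was not tested.

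**Figure D4:**
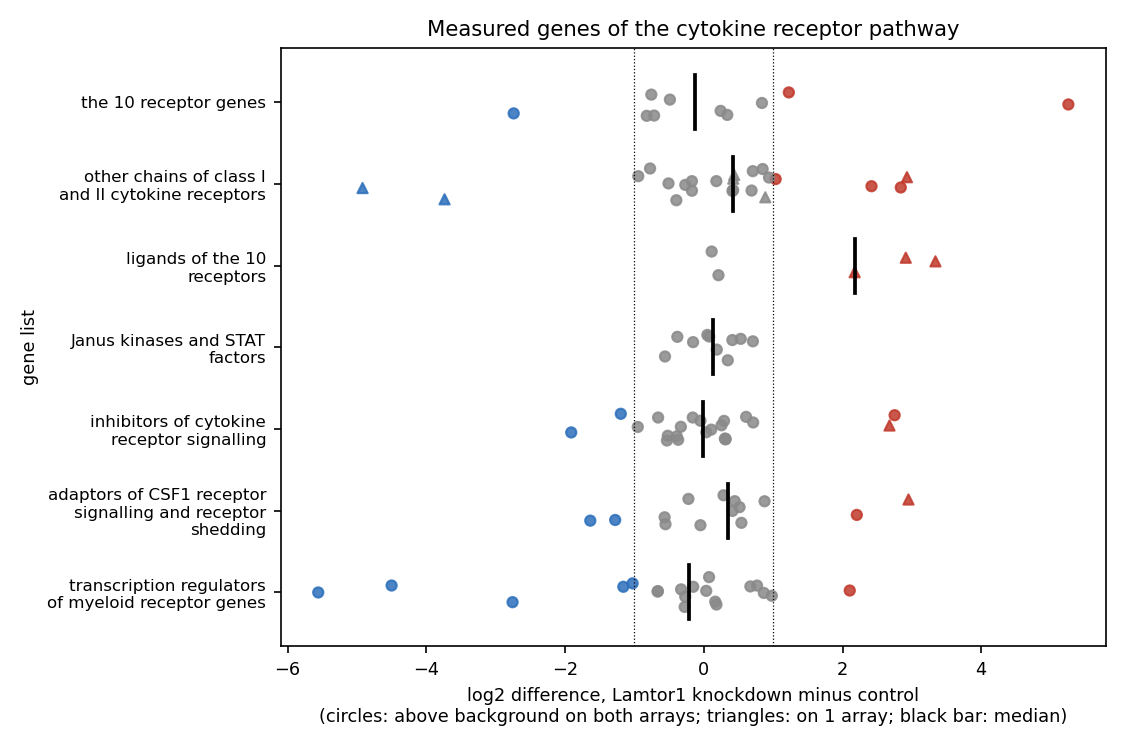
Log2 difference (Lamtor1 knockdown minus control, 1 array each) of the measured genes in the receptor list and in 6 lists of the same pathway; circles are genes above background on both arrays, triangles on 1 array, red and blue past 2-fold, and the black bar is the median. The Janus kinase and STAT genes all lie between the 2-fold lines. The ligand median of 2.18 rests on 3 genes that were dim in the control and measured in the knockdown alone. Over the 2 ligand genes above background on both arrays the median was 0.16.

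The place of the receptor genes on the chromosomes was looked at through the 5 measured genes on either side, in the order of the RefSeq table for GRCm38.p6. Csf2ra is the exception, with 5 neighbours on 1 side and none on the other. Around Il7r the 10 neighbours had a median difference of -0.14. Of the nearest, Capsl was measured in the control alone, at least 2.83-fold lower, and Prlr differed by 0.71. Farther out, Ranbp3l was at -5.75 and Rai14 at 1.85. Around Il10ra the median was 0.05 over 10 neighbours, but the adjacent gene Jaml, an adhesion molecule, was at -5.98. Around Csf2rb the median was 0.63, and 3 of 10 neighbours were at least 2-fold higher, beside 9.0% of all measured genes. They were Csf2rb2 at 2.84, Tst at 1.82 and C1qtnf6, which was measured in the knockdown alone and was at least 6.47-fold higher. Around Csf1r the median was -0.78, and 4 of 10 were at least 2-fold lower by plain difference and 3 by bounds, beside 8.35% of all measured genes. Cd74 was at -1.17 and Pcyox1l at -1.30. The adjacent receptor kinase gene Pdgfrb and Cdx1 were measured in the control alone, at least 2.09-fold and 1.22-fold lower. Il10rb is a neighbour of Ifngr2 on chromosome 16, and the median there was -0.24. For the other receptor genes the neighbours' medians ran from -0.16 for Csf3r to 0.21 for Ifngr1. Ifngr1, like Csf2rb, had 3 of 10 neighbours at least 2-fold higher, beside 9.0% of all measured genes. They were Hebp2 at 3.61, Arfgef3 at 1.44 and Nhsl1, measured in the knockdown alone, at least 6.80-fold higher.

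Promoter windows of 300 bases, from 250 before to 50 after the start, were found in the RefSeq table for 7 of the 10 genes and not for Csf1r, Csf2rb and Il10ra. They were searched on both strands for 3 motifs. CACGTG, the E-box that TFEB can bind, was found in the window of Il6ra alone, and in 7.15% of all 32851 windows. GAGGAA, a purine box of the kind PU.1 binds, was found in 3 of the 7, Il6ra, Csf3r and Csf2ra, and in 28.3% of all windows. TTCNNNGAA, the gamma-activated sequence that STAT factors bind, was found in 1 of the 7, Il7r, and in 8.30% of all windows. No match overlapped another. The 250 bases before the Il7r start are printed since Il7r had the largest difference of the group, at chr15:9529877-9530126 in GRCm38.p6 on the minus strand, with the match in capitals, its last base followed by 133 bases up to the start.
Il7r upstream: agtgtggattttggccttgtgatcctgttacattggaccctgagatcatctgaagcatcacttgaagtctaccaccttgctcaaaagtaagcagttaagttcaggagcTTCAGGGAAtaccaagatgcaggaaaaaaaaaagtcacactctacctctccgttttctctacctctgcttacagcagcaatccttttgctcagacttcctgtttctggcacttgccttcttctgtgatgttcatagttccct
A match of letters is a description of the window and not evidence of binding.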

How the data were processed

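Per the file headers and the submitters' processing notes, the deposited intensity values were made by the authors with Agilent Feature Extraction 10.7.3.1, which corrected spatial and multiplicative trends within each 1-colour array and replaced signals not above background by surrogates; probe positions are in mm9. Both arrays lie on the same slide and were scanned together. The deposited value table repeats these intensities (ratio 0.995 to 1.005). From them, each log2 signal was set against the 75th percentile of its array, taken over all spots other than controls (Python 3.11.15). Spots flagged as outliers stayed in that percentile and were left out when the spots of a probe were averaged. Of 39429 probes, 26055 were named by accession, 3195 by symbol and 930 by an older symbol through the RefSeq table for GRCm38.p6, and 9249 stayed unnamed. Genes were counted at 2-fold. A bound ("at least") sets the bright signal against the higher of the dim array's lowest signal well above background and the probe's own signal there. Normexp used limma 3.58.1 with offset 50. The receptor genes, lists and rules were chosen with earlier results of these data known, and the shared stretches, neighbours and motifs after the values were seen. Named genes were all receptor genes, their fixed partner chains and ligands, and list members past 2-fold, at most 8 per list; other genes were named after their values were seen. The alternatives changed the background correction, scaling, filter on dim probes, choice of probe, bounds, outlier spots and source table, 1 at a time. The steps were tested on simulated data. Some list members are not reported here.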

Additional observations from a re-analysis of the deposited data

How the results depend on the processing

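The 10 receptor genes kept their sign under all 10 alternatives, and the count at least 2-fold higher was 2 in each. The filter, bound and outlier settings could not change these genes. Every receptor probe was above background on both arrays and carried no outlier flag. The deposited value table repeats the same intensities, so it was no separate check either. Il7r ran from 4.89 to 5.35 and Il10ra from -2.78 to -2.63. With the median over probes, 2 receptor genes were at least 2-fold lower. With median scaling the receptor median was -0.031 and 2 regulator genes were at least 2-fold higher. Over all genes normexp gave 789 higher and 613 lower of 13773. The requirement of signal on both arrays gave 793 and 693 of 12565 genes. With no filter there were 1657 higher and 1760 lower of 22801 genes, so these counts have unlike totals. With normexp 0 ligand, 1 inhibitor and 1 adaptor genes were at least 2-fold higher; with signal on both arrays the counts were again 0, 1 and 1, and 0 other receptor chains were lower; by bounds 1 ligand and 1 adaptor gene were higher; and with no filter 4 other receptor chains and 2 ligand genes were lower. The filter and bound settings differ from the reported one only in how genes dim on 1 or both arrays count; for normexp and the scalings the cause was not tested. No paired analysis was possible because each group has 1 array. Probes not well above background give bounds only, and the number of arrays limits the precision.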
